A study of Mus musculus with 2 samples.

Results

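The miR-103 and miR-107 family is made of 3 miRNA genes in the mouse, Mir103-1, Mir103-2 and Mir107, each in an intron of a pantothenate kinase gene. The members were taken by their symbols among the 1973 miRNA genes of the count tables, and all 3 had a row. The tables come from microRNA sequencing of small RNA from the hindbrain of mouse embryos of strain B6NCrl at embryonic day 12.5, labelled as healthy, with no treatment or mutation named. The series has 1 group with 2 libraries. Replicate 1 was pooled from 120 embryos and replicate 2 from 88, males and females together. Both pools carry the same donor label, so that their numbers and sizes are all that marks them as separate.

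MicroRNAs (miRNAs) are short RNAs cut from the 2 arms of a hairpin precursor, and bases 2 to 8 of the mature strand, the seed, pair with target messenger RNAs to repress them. Pantothenate kinases catalyse the first step of coenzyme A synthesis, and miRNAs in their introns can be made from the same primary transcript as the kinase. The family is known for repressing Dicer and caveolin-1 and for effects on insulin sensitivity, and it is broadly expressed, brain included.

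The mature strands of the 3 hairpins are nearly the same sequence, and the few bases that differ decide which gene a read can be assigned to. The mature sequences below are from RefSeq on GRCm38.p6, the assembly also called mm10, written 5′ to 3′ with the seed in capitals. They are shown because the 3p strands, the arm of the well-known mature miRNAs, hold the family's identity.
mmu-miR-103-3p (Mir103-1 and Mir103-2): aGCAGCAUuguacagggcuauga
mmu-miR-107-3p (Mir107): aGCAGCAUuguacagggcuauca
mmu-miR-103-1-5p (Mir103-1): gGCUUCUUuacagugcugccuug
mmu-miR-103-2-5p (Mir103-2): aGCUUCUUuacagugcugccuug
mmu-miR-107-5p (Mir107): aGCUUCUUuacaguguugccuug

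All 5 mature strands are 23 bases long. The 3p strand of Mir103-1 and Mir103-2 is identical, and that of Mir107 differs from it only by G22C, counted from 1 at the 5′ end with the miR-103 base first. On the 5p arm, Mir103-1 differs from Mir103-2 by G1A, and Mir103-2 differs from Mir107 by C16U. Among the 1674 distinct mature sequences in the RefSeq table, the 3p seed GCAGCAU was in miR-103-3p and miR-107-3p only, and the 5p seed GCUUCUU was in the 5p strands of these 3 genes only.

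The hairpins themselves diverge outside the arms. They are given with both mature strands in capitals, since the bases around the strands are what separates the copies.
Mir103-1: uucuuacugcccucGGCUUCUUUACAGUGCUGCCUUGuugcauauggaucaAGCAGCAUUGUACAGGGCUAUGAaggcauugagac
Mir103-2: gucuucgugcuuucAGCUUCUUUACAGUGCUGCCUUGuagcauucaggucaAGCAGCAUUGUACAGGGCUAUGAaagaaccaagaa
Mir107: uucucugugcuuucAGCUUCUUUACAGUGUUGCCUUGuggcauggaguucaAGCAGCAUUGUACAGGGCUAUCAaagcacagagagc

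Over a global alignment, Mir103-2 and Mir107 had 83.9% identical columns, Mir103-1 and Mir107 had 80.5%, and the 2 copies of miR-103 had 80.2%. The longest identical run was 27 bases between Mir103-1 and Mir103-2 and 24 bases between each of them and Mir107. Thus the copies with the same 3p strand were not the most alike over the whole hairpin, while they shared the longest run.

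The 3 hairpins sit at the same place in their hosts, in the GENCODE M21 annotation of GRCm38. Mir107 (ENSMUSG00000065594.1) is on chromosome 19, minus strand, from 34820687 to 34820773, in Pank1. Mir103-2 (ENSMUSG00000065563.1) is on chromosome 2, plus strand, from 131288052 to 131288137, in Pank2. Mir103-1 (ENSMUSG00000065553.1) is on chromosome 11, plus strand, from 35782396 to 35782481, in Pank3. In a protein-coding transcript of 7 exons in each host, the hairpin lies on the host's strand in intron 5 of 6, between an exon of 124 bases and an exon of 126 bases. No annotated exon of a host overlaps its hairpin, and some other transcripts of Pank1 and Pank2 number the intron differently. In these transcripts the intron is 7282 bases long in Pank1, 5801 in Pank2 and 1740 in Pank3, and the hairpin starts 326, 454 and 688 bases after the upstream exon, in that order of hosts.

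**Figure D1:**
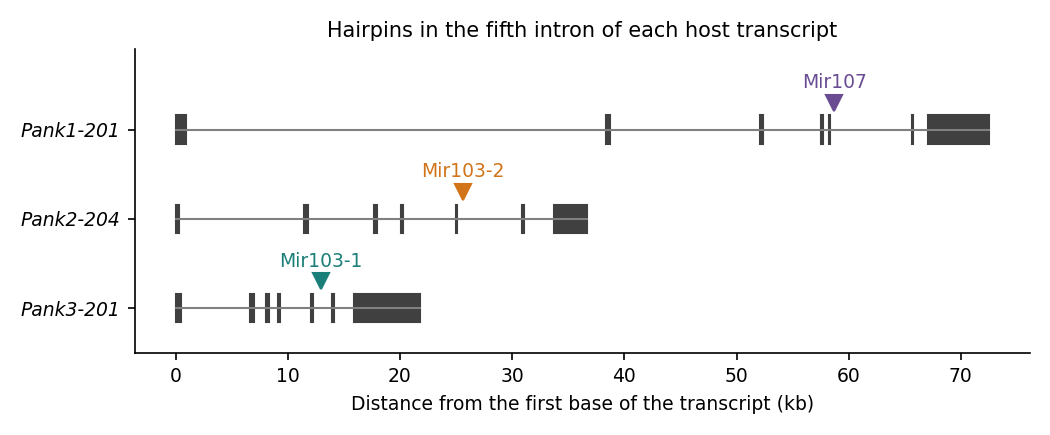
Exons (bars) and introns (lines) of 1 protein-coding transcript per host, drawn to scale from the first base of the transcript in kilobases, with a triangle at each hairpin. In all 3 hosts the hairpin follows the fifth exon, although the intron shortens from 7282 bases in Pank1 to 1740 in Pank3.

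Reads that match several genomic positions have a row of their own in each table, as read from its name, since no header explains it. This row, the other tally rows and the gene rows add up to the same total in each strand column, so these reads are taken as being in no gene's count. They made up 32.7% of 5947846 reads in replicate 1 and 33.4% of 8656439 in replicate 2. The strands of each hairpin, lengthened or shortened, were therefore looked up among 2202 miRNA transcripts of GENCODE M21. A 3p read that begins at the annotated first base and has 18 to 21 bases matches all 3 hairpins exactly. With 22 bases or more, such a read of Mir107 matches Mir107 alone, because it reaches the base that differs. From Mir103-1 or Mir103-2 it matches both copies at 22 to 24 bases and a single copy from 25 bases on, past the annotated 3p end. A 5p read that begins at the annotated first base matches 1 hairpin from 18 bases on for each gene, but when it begins 1 base later, Mir103-1 and Mir103-2 cannot be separated below 24 bases.

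**Figure D2:**
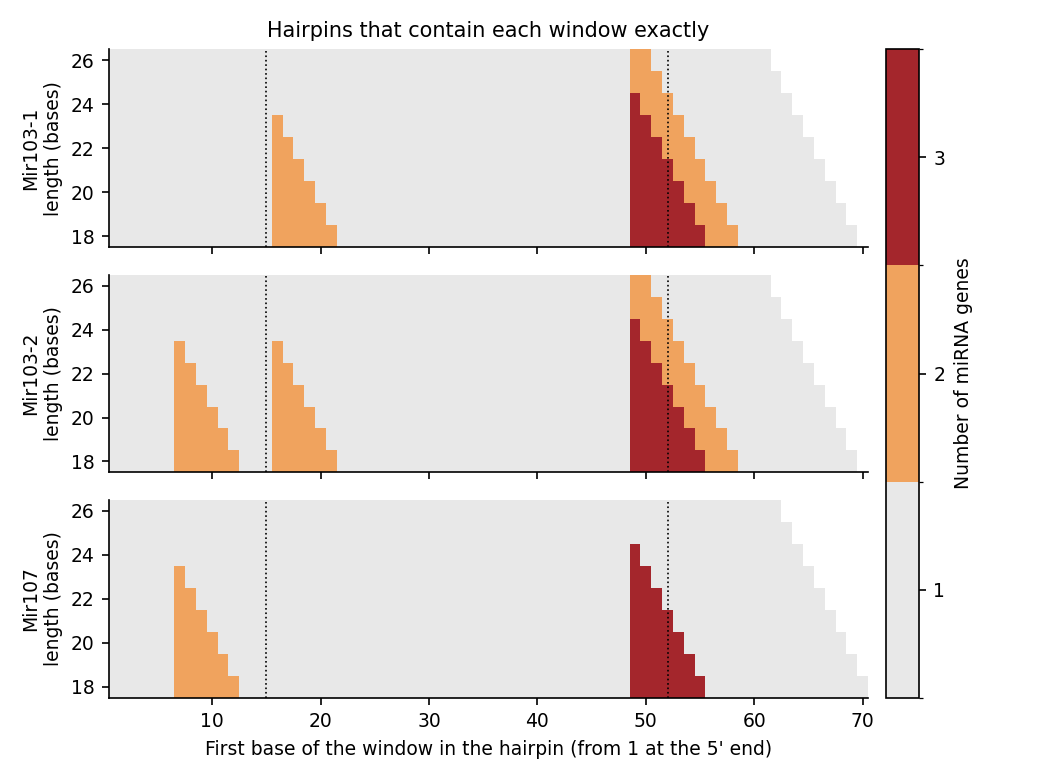
Every window of 18 to 26 bases (vertical axis) along each hairpin, by its first base (horizontal axis), coloured by the number of GENCODE M21 miRNA genes that contain it exactly; dotted lines mark the annotated starts of the 5p and 3p strands, and white marks starts with no room for a window. At the 3p start of Mir107 windows of 22 bases or more occur in 1 gene, whereas at the 3p starts of Mir103-1 and Mir103-2 windows of 22 to 24 bases occur in 2.

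No window of 18 to 26 bases from these hairpins occurred in a miRNA gene outside the family. Of all windows of 23 bases, the length of the mature strands, 62 of 65 from Mir107 occurred in no other gene, as did 57 of 64 from Mir103-2 and 58 of 64 from Mir103-1. The shared windows lie at or beside the mature strands, as the map of windows shows. Only hairpins were searched, so matches elsewhere in the genome were not analysed here.

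Replicate 1 gave 2764276 reads counted to a miRNA gene on its own strand and replicate 2 gave 3946444. Levels are counts per 1000000 of these (CPM), they merge the arms of a hairpin, and means are given with their SD. In replicate 1 a single count equals 0.362 CPM, and in replicate 2 it equals 0.253 CPM. The 95% intervals below are exact Clopper-Pearson intervals and cover counting error only, since reads amplified from the same molecule are each counted. Of the miRNAs that mark this part of the nervous system, Mir10a and Mir10b, from the Hox clusters, together had 41378 ± 1367 CPM (SD, n = 2). Of 9 rows for neural miRNAs 6 were detected, with 5554 ± 193 CPM in all, and the remaining rows were below 10 counts in replicate 1. Both mature strands of Mir9-2 and Mir9-3, and 1 strand of Mir128-1 and Mir128-2, are shared with other hairpins. Under the reading of the tally rows above, their counts leave out reads that match several positions and are no measure of the total miRNA. The Mir124a rows had no matched RefSeq strand, so sharing was not checked for them. Of the miRNAs of other cell types, the epithelial list (5 of 5 genes detected) summed to 6159 and 2856 CPM in replicates 1 and 2. The skeletal muscle list (2 of 3 genes detected, Mir1a-1 at 0) summed to 152 and 592 CPM, in the same order. Also in that order, the endothelial marker Mir126a had 25987 and 23442 CPM, and the smooth muscle list (2 of 2 genes detected) summed to 8348 and 10834. The erythroid list summed to 277 and 340 CPM, the leukocyte list to 293 and 225 and the liver list to 12.3 and 9.88. Their part in the values below was not tested.

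Mir107, the miRNA in the Pank1 intron, held nearly all counts of the family. It had 4275 counts or 1547 CPM in replicate 1 (95% interval 1501 to 1594) and 6283 counts or 1592 CPM in replicate 2 (1553 to 1632), with a mean of 1569 ± 32.2 CPM (SD, n = 2). This is 0.155% and 0.159% of the assigned counts. Mir103-2, in the Pank2 intron, had 199 counts or 72.0 CPM in replicate 1 (62.3 to 82.7) and 292 counts or 74.0 CPM in replicate 2 (65.7 to 83.0), with a mean of 73.0 ± 1.41 CPM (SD, n = 2). Mir103-1, in the Pank3 intron, had 18 counts or 6.51 CPM in replicate 1 (3.86 to 10.3) and 16 counts or 4.05 CPM in replicate 2 (2.32 to 6.58), with a mean of 5.28 ± 1.74 CPM (SD, n = 2).

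In both libraries the order was therefore Mir107, Mir103-2, Mir103-1, and neither the values nor the counting intervals of neighbours in this order overlapped. The annotated hairpins have 87, 86 and 86 bases in that order, so a scaling by length would leave the order as it is. A gene is termed detected when each library has 10 counts or more of it, which held for all 3 members and for 371 of 1973 genes. Mir103-1, at 16 to 18 counts, was close to that minimum. Because the mature 3p strand of miR-103 matches both copies, the counts of Mir103-1 and Mir103-2 are, under that reading of the tally rows, those of reads that tell the copies apart. They are no measure of total miR-103 in the hindbrain.

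**Figure D3:**
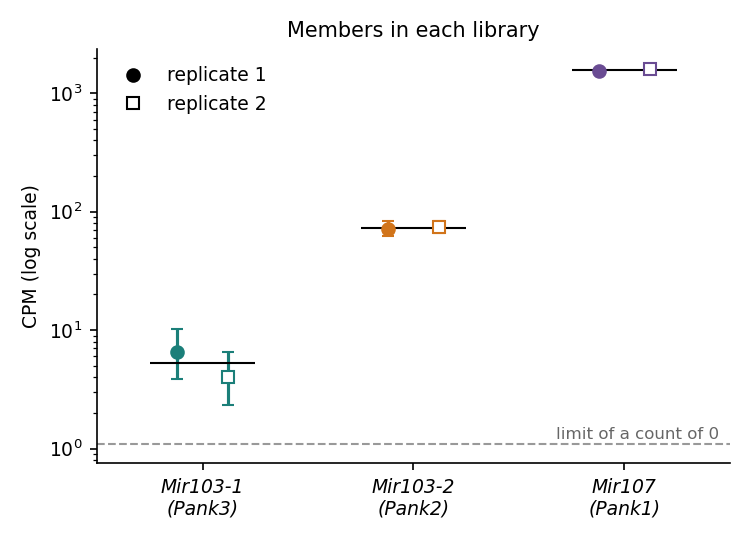
Level of each member in CPM on a log axis, with replicate 1 as filled circles, replicate 2 as open squares, exact 95% counting intervals as bars, the mean as a black line and the larger of the library limits for a count of 0 as a dashed line. Mir107 lies at 1547 and 1592 CPM, Mir103-2 at 72.0 and 74.0 and Mir103-1 at 6.51 and 4.05, with no overlap between genes.

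The ratio of Mir107 to Mir103-2 was 21.5 in replicate 1 (95% interval 18.6 to 24.9) and 21.5 in replicate 2 (19.1 to 24.3). The ratio of Mir107 to Mir103-1 was 238 (150 to 401) and 393 (242 to 687). These ratios compare reads that can be assigned, which for Mir107 include 3p reads of full length and for the miR-103 copies do not. They give no ratio of miR-107 to miR-103.

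The makeup of the family did not pass the test for a difference between the pools. Mir107 made up 95.2% of the family's 4492 counts in replicate 1 (94.5% to 95.8%) and 95.3% of 6591 in replicate 2 (94.8% to 95.8%). Mir103-2 made up 4.43% in each library (3.85% to 5.07% and 3.95% to 4.96%). Mir103-1 made up 0.401% in replicate 1 (0.238% to 0.633%) and 0.243% in replicate 2 (0.139% to 0.394%), and these intervals overlap. Fisher's exact test (two-sided, 3 tests) of the share between the libraries gave an adjusted p of 0.486 for Mir103-1, with an odds ratio of 0.605 for replicate 2 over replicate 1. For Mir107 the odds ratio was 1.04 and for Mir103-2 it was 1.00, with an adjusted exact p of 1 for both. These tests compare 2 libraries and not conditions.

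Summed over its members, the counts of the family came to 1625 and 1670 CPM in replicates 1 and 2. The mean was 1648 ± 31.9 CPM (SD, n = 2) or 0.165% of the assigned counts. Under the reading of the tally rows above, this sum leaves out 3p reads that match several members. It is no measure of the family's total miRNA. On the strand opposite to the gene, each of the 3 members had 0 counts in both libraries, which bounds that strand at 1.09 CPM for replicate 1 and at 0.760 CPM for replicate 2.

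Between the libraries the family was close to level. Mir107 in replicate 2 was 1.03 times its CPM in replicate 1 (95% counting interval of the ratio 0.990 to 1.07), and Mir103-2 was 1.03 times (0.855 to 1.24). Mir103-1 was 0.623 times, with an interval from 0.297 to 1.29, which holds both an equal level and a 2-fold lower level in replicate 2 and leaves out a 2-fold higher one. On the log2 scale, with 0.5 added to each count, the ratios were 0.04, 0.04 and -0.68.

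Every gene averaging 10 counts or more, 393 in all, was tested between the libraries with the exact binomial test (two-sided). Adjusted by Benjamini-Hochberg over these genes, the exact p was 0.224 for Mir107, 0.846 for Mir103-2 and 0.255 for Mir103-1. None of the 3 members was called at an adjusted p under 0.05 and 2-fold, and 3.56% of all genes tested were. Without a minimum fold, 0 of 3 members and 51.7% of all genes passed, and at an unadjusted p under 0.05 it was 0 of 3 members and 220 of 393 genes. The absolute log2 ratio was smaller than that of Mir107 in 31 of the 393 genes and smaller than that of Mir103-2 in 27. For Mir103-1 it was smaller in 350 genes. The median over all genes tested was 0.24. With DESeq2 size factors the adjusted p of Mir107 was 0.00612, at a log2 ratio of 0.09 that stayed far from 2-fold.

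**Figure D4:**
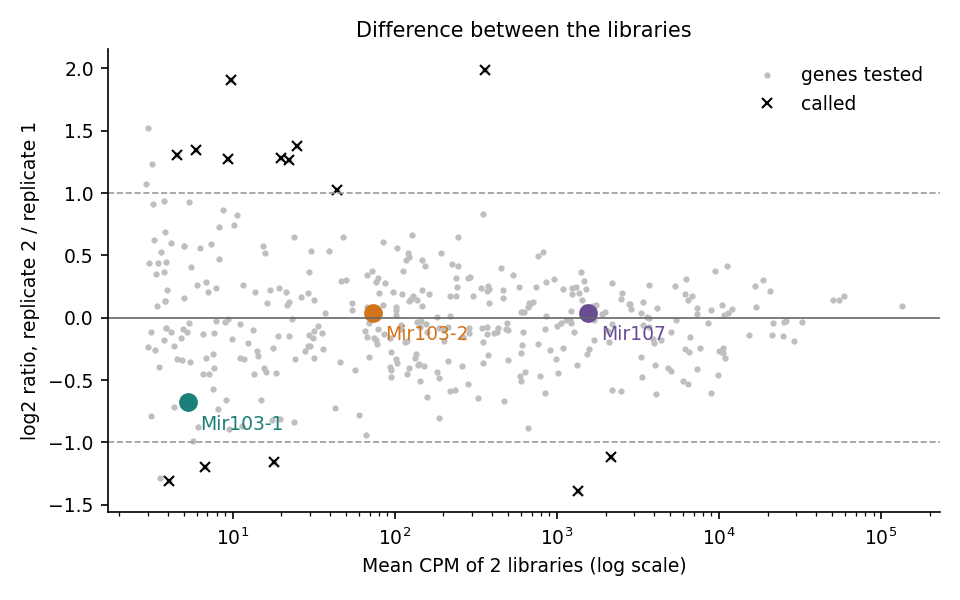
log2 ratio of replicate 2 over replicate 1 (vertical axis) against mean CPM on a log axis for the 393 genes tested, with dashed lines at 2-fold, crosses for the 14 called genes and coloured points for the members. Mir107 and Mir103-2 lie at 0.04, and Mir103-1, the member with the fewest counts, lies at -0.68.

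By reads that can be assigned, Mir107 stood far above the miR-103 copies among the miRNA genes of the hindbrain, and the ranks of the copies leave out 3p reads that match both of them. By mean CPM Mir107 ranked 84 of 1973 genes, with rank 86 in replicate 1 and 83 in replicate 2. Mir103-2 ranked 244, and Mir103-1 ranked 353. Among the 143 detected genes in a same-strand intron of a protein-coding gene the ranks were 34, 85 and 132. The median of those 143 genes was 142 CPM, beside 183 CPM over all 371 detected genes. Mir107 lay above both medians in both libraries, and the miR-103 copies lay below both.

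The detected genes nearest in level to Mir107, by the distance of log2(CPM + 1) over the 2 libraries, were Mir204 (1572 and 1604 CPM), Mir101b (1449 and 1538) and Mir467c (1631 and 1737). Each of these 3 lies in an intron too, of Trpm3, Rcl1 and Sfmbt2. The range of Mir101b lies below that of Mir107 and the range of Mir467c above it. Mir204, known from choroid plexus and pigment epithelium, did not differ from Mir107 by more than the spread of the libraries, since the range of either gene overlaps that of the other. Nearest to Mir103-2 were Mir6540, in an intron of Gap43 (70.5 and 72.2 CPM), Mir3475 (70.5 and 68.4) and Mirlet7a-1 (78.9 and 70.4). Nearest to Mir103-1 were Mir291a (7.60 and 3.80 CPM), Mir6900 (6.15 and 4.81) and Mir5103 (5.43 and 4.31). With 2 libraries this likeness is one of level only.

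The family is often grouped with miR-15/16 and its relatives, because all of them carry AGCAGC near the 5′ end of the main strand. The RefSeq strands of the detected genes of that group are shown with this motif in capitals, to set its position beside that in miR-107.
mmu-miR-15a-5p: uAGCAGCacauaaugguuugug
mmu-miR-15b-5p: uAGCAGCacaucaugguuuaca
mmu-miR-16-5p: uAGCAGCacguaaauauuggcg
mmu-miR-195a-5p: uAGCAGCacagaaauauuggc
mmu-miR-503-5p: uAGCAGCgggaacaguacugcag
mmu-miR-322-5p: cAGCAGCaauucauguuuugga

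In these strands the motif begins at base 2, and in miR-103-3p and miR-107-3p, printed above, it begins at base 1. The seed, read from base 2, is therefore AGCAGCA in miR-15a, miR-15b, miR-16, miR-195a and miR-322 and AGCAGCG in miR-503, beside GCAGCAU in miR-103 and miR-107. None of the relatives listed shares the family's seed.

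By counts, Mir107 stood inside the range of these relatives. Of 10 listed genes 9 had a row and 7 were detected, with 29692 ± 2202 CPM (SD, n = 2) in all, against 1648 CPM for the 3 genes in Pank introns. Mir322, the mouse counterpart of miR-424 on the X chromosome, gave most of it with 20633 ± 2199 CPM. Mir15a (3830 and 3629 CPM) and Mir16-1 (2341 and 2687 CPM), known for restraining the cell cycle, were above Mir107 in both libraries. Mir15b (1501 and 1154 CPM), Mir16-2 (532 and 630), Mir503 (473 and 599) and Mir195a (380 and 362) were below it in both. The range of Mir107 overlapped that of none of the 7. Mir16-1 and Mir16-2 share the strand miR-16-5p, so their counts carry the same limit as those of the miR-103 copies. The place of Mir107 between them, the sum of the list and the sum of the 3 genes in Pank introns carry it too. These sums therefore give no ratio of total miRNA between the list and the family. Mir195b had 0 counts in both libraries. Mir497b had 3 and 1 counts on its own strand and 1333 and 1793 on the opposite strand, and with both strands together 8 genes of the list were detected. None of the 7 tested genes was called between the libraries, beside 3.56% of all genes tested. Without a minimum fold 6 of the 7 passed, beside 51.7% of all genes.

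**Figure D5:**
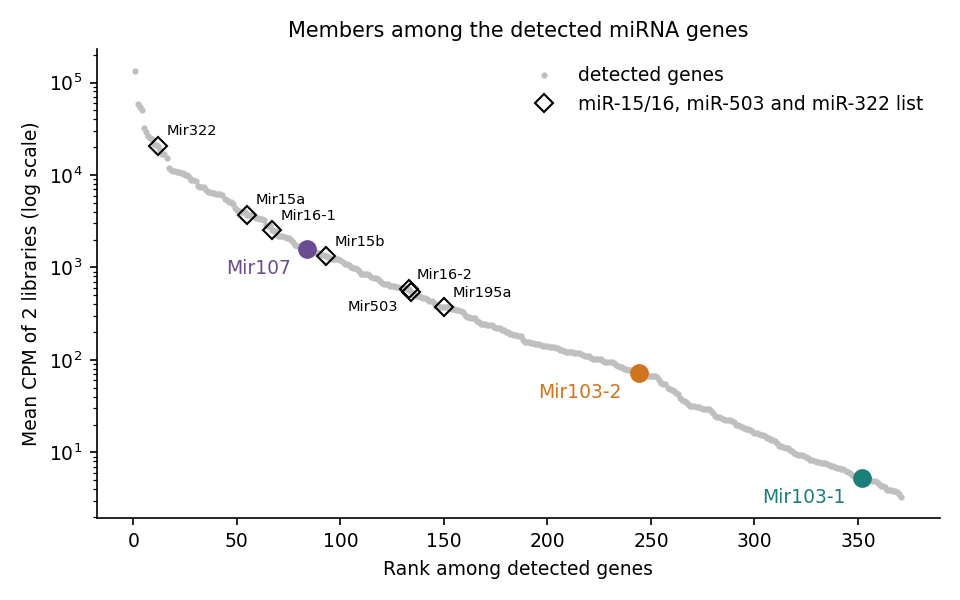
Mean CPM of 2 libraries on a log axis against rank among the 371 detected genes (grey), with the members as coloured points and the detected genes of the miR-15/16, miR-503 and miR-322 list as diamonds. Mir107 lies between Mir16-1 and Mir15b, and Mir103-2 and Mir103-1 lie below all 7 diamonds.

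Other miRNAs whose hosts are related to each other also include copies with a shared mature strand. The miR-26 genes lie in the Ctdsp phosphatase genes. There Mir26b, whose mature strands are in no other hairpin of the RefSeq table, had 21662 ± 449 CPM (SD, n = 2). Mir26a-1 and Mir26a-2, which share a mature strand, had 6.59 ± 1.43 and 31.6 ± 2.24 CPM, and Mir26a-2 overlaps an annotated exon of its host. The miR-218 genes of Slit2 and Slit3 share a mature strand as well, and Mir218-1 had 22.3 ± 1.39 and Mir218-2 224 ± 47.0 CPM. Among the miRNAs of myosin heavy chain genes, Mir208b (13.0 and 31.7 CPM) and Mir499 (3.98 and 15.5 CPM) were called as higher in replicate 2, with adjusted exact binomial p values of 2.47e-06 and 9.70e-06, and Mir208a (5.06 and 4.05 CPM) was not. In all, 2 of 8 genes in related hosts were called, beside 3.56% of all genes tested. The skeletal muscle markers Mir206 (146 and 579 CPM) and Mir133b (5.43 and 13.4 CPM) were called as higher in replicate 2 too, and their part in the values of Mir208b and Mir499 was not tested.

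The split of counts between the copies of miR-103 was wider than in most pairs of duplicated miRNAs with both genes detected. Under the reading of the tally rows above, each split covers only reads that tell the copies apart. It does not give the part of each copy in the mature strand they share. A gene can be in more than 1 pair. By RefSeq, 31 pairs of genes have a mature strand that is in exactly those 2 genes and a row for both in the count tables, and in 19 pairs both genes were detected. The ratio of the higher to the lower gene, as the geometric mean of the libraries, was 14.2 for Mir103-2 over Mir103-1, with 11.1 (95% interval 6.82 to 19.0) in replicate 1 and 18.3 (11.0 to 32.4) in replicate 2. The median over the 19 pairs was 2.85, with a range from 1.18 to 89.0, and 2 of these pairs were above the miR-103 pair. They were Mir181b-2 over Mir181b-1 (116 and 68.2) and Mir92-1 over Mir92-2 (13.9 and 16.5), named after their values were seen. Pairs with an undetected lower gene are outside this range, such as Mir194-2 (66.0 CPM) over Mir194-1 (0.507 CPM), with a ratio of 62.8 in replicate 2. In replicate 1 the miR-103 ratio was below that of Mir219a-2 over Mir219a-1 (11.6), also named after its value was seen, so its place near the top rests partly on 16 counts of Mir103-1 in replicate 2.

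Mir107 had a position of its own among the 869 genes matched to a RefSeq hairpin. It was the only one with no mature strand identical to that of another gene and yet the first 21 bases of a strand in common with one. In that set 786 genes had no shared strand, and 272 of them were detected, with a median of 207 CPM. The 52 genes that share some but not all strands, as Mir103-1 and Mir103-2 do, had 36 detected genes with a median of 150 CPM. The 31 genes that share every strand had 8 detected genes with a median of 194 CPM.

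The miRNAs listed for lipid and energy metabolism, a field in which miR-103 and miR-107 are studied, spanned a wide range. Of 9 listed genes 8 had a row and all 8 were detected, with a median of 81.6 CPM. None of the 8 was called between the libraries, beside 3.56% of all genes tested. Without a minimum fold 3 of the 8 passed, beside 51.7% of all genes. Mir33, in an intron of the sterol regulator Srebf2, had 81.8 and 87.7 CPM, which was above Mir103-2 and far below Mir107. Mir370 (822 and 710 CPM) and Mir27b (857 and 1063 CPM) were below Mir107 in both libraries. Mir34a (81.0 and 76.0 CPM), Mir30c-1 (70.5 and 63.6), Mir30c-2 (35.1 and 28.1) and Mir122 (12.3 and 9.88) were lower still. Mir143, known from smooth muscle, exceeded Mir107 at 8223 and 10663 CPM. Copies of Mir30c share a mature strand, so their counts carry the same limit as those of miR-103.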

How the data were processed

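Whole-number read counts per miRNA gene were deposited for each of 2 hindbrain libraries, made by the authors from alignments to mm10 with annotation M4, per the text file deposited beside each table. For aligner, trimming and settings, the sources used here give nothing. The column used holds counts on the gene's own strand, as read from the table layout. Tally rows without a gene stayed outside the totals. They gave 15.7% and 16.2% of reads as unmapped, 32.7% and 33.4% as matching several positions and 5.12% and 4.81% as outside genes on this strand.

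IDs were matched without versions to GENCODE M21 on GRCm38, the assembly of the files (1894 of 1973). RefSeq hairpins (GRCm38.p6) were matched by position with at least 50% overlap on the same strand (869 genes, all 3 members). Missing symbols of the lists, Mir497, Mir378a, Mir9-1, Mir142 and Mir1a-2, were not analysed here. Genome sequence was not used here, so copies were counted among hairpins rather than over the genome as planned.

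With 1 group there is no contrast for a model across conditions. Each gene was tested between the libraries by an exact binomial test with Benjamini-Hochberg adjustment over genes averaging 10 counts or more, called at 0.05 and 2-fold. The p-values measure how far the counts of these 2 libraries depart from counting error alone. They hold no estimate of the spread between replicates. Tools were Python 3.11.15, SciPy 1.17.1, Biopython 1.88, matplotlib 3.10.9, and, for scaling alternatives, edgeR 4.0.16 and DESeq2 1.42.0 in R 4.3.3. The test was checked on simulated counts that vary by counting error only, so the check does not cover spread between replicates. Named genes are the members, the 3 detected genes nearest to each in level and the members of the lists. Members and lists were chosen with earlier results of these data known.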

Additional observations from a re-analysis of the deposited data

How the results depend on the processing

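The absence of a call for the members between the libraries held under every scaling, strand, minimum and pseudocount run. The order of the members could not change under these settings, so they are no check of it. Each scaling acts alike on all members of a library, and no member had counts on the opposite strand. Over these settings the log2 ratio of replicate 2 over replicate 1 ran from 0.03 to 0.09 for Mir107 (adjusted exact binomial p 0.00612 to 0.333), from 0.03 to 0.08 for Mir103-2 (0.664 to 0.966) and from -0.69 to -0.63 for Mir103-1 (0.251 to 0.368). Levels depend on the denominator. With both strands together, without the most abundant gene, and per 1000000 of all reads tallied, they were 71.3, 84.4 and 33.6 CPM for Mir103-2, 1532, 1814 and 722 for Mir107, and 1609, 1904 and 758 for the family. Mir103-1 was at 2.44 per 1000000 of all reads. With both strands together Mir103-2 ranked 253 and Mir107 ranked 89. Leaving out a replicate put Mir103-2 at rank 243 or 244. The number of genes called between the libraries was 14, with 4 at a mean of at least 100 counts, where Mir103-1 is not tested, and 203 with no minimum fold. In all, 73 of 89 alternative values stayed close to the main ones, and none changed sign. For levels, shares and ranks, close means within the spread of the libraries, and for tests on the same side of the threshold. For numbers of genes it means within a set fold of the main number. With 2 libraries, a level or share from a single library always lies within that spread, so leaving out a replicate is no check of these. The shares could not change with both strands together either, as no member had counts on the opposite strand. The tally of close values includes these cases. Without either replicate the comparison of libraries could not be made. No paired analysis was possible because the series has 1 group. Depth limits Mir103-1, whose share of the family rests on 18 and 16 counts.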
